A study of Cocos nucifera with 22 samples.

Results

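The genes described here are 35 genes of coconut (Cocos nucifera) that the study assigned to the abscisic acid (ABA) pathway in its table of genes selected for their expression in salt-treated leaves. In the copy of that table used here, 44 of 738 rows had a pathway entry starting with ABA. A further 43 rows of it were not analysed here, so the list may be incomplete. The 9 rows whose products were BURP domain proteins (5), lipid-transfer proteins (2) or late embryogenesis abundant proteins (2) were left out by name, and the other 35 were found among the 25247 genes listed in any library. The match was to the spelling of the product. LTP203 (lipid transfer without a hyphen) and relatives under other names, such as dehydrin COR410, therefore stayed in. The criteria in the study's methods name no variety, but all expression values, fold changes and probabilities in that table are those of tall leaves, so its rows were taken to have been selected on the FPKM of tall leaves. Tall values are therefore given as a description, with no test. The changes over time in dwarf leaves, for which the table has no values, were tested. These tests are not wholly free of the choice, since their estimates of spread and of the flow cell effect used the tall libraries too. Counts with dwarf libraries alone, which were lower against 0 h, are given below. As genes chosen for change or high expression, the members are no random draw from all genes, and the shares of all genes are printed beside theirs as background.

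RNA-seq was run on leaves of seedlings 4 to 5 months old of 2 varieties, Aromatic Coconut (the dwarf) and Hainan Tall (the tall), kept in a greenhouse and given diluted Murashige and Skoog medium enriched with 200 mM NaCl. Each variety had 3 libraries at 0 h, 4 h and 6 d and 2 libraries at 10 d, after a second dose of salt on day 7. The study's methods speak of 3 seedlings as replications and of 3 different leaves, samples with the same number being from 1 leaf. They do not say which leaf belonged to which seedling. The main fit treated samples of 1 leaf at different times as independent, and the leaf as a block was an alternative. The p-values measure the spread between libraries of a group, pooled over both varieties. Whether this is a spread between seedlings is not known. No unsalted leaves were sampled after 0 h. In any change from 0 h, the effects of salt, of daytime, of growth over the days and of the medium cannot be told apart.

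ABA is a stress hormone made from carotenoid precursors, and its level rises in leaves that lose water. ABA bound to its receptors blocks the protein phosphatases 2C, which frees SnRK2 kinases to activate bZIP transcription factors and, through them, genes for stomatal closure and for proteins that protect membranes and other proteins during drying. MYB and B-box factors, ubiquitin ligases and the energy-sensing SnRK1 kinase modulate the response, and several of them are also part of the circadian clock or of light signalling.

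By product name, family or pathway entry, the members were mainly regulators around that core. There were 11 MYB and MYB-like factors, 4 CONSTANS-like B-box factors, 4 genes filed under bZIP, 6 kinase, ubiquitin and sensor proteins, and 10 protective, membrane and wall proteins. The MYB group includes a ribonuclease J-like gene, and SAUR32-like was placed with the kinase, ubiquitin and sensor proteins. None of the 35 was named as an ABA receptor, a protein phosphatase 2C or a SnRK2 kinase. Of the members, 28 lay on chromosomes and 7 on unplaced scaffolds or contigs. The counts of 22 members were not whole numbers in some library, which shows that reads were divided among similar transcripts, so the copies of CONSTANS-LIKE 2, CPC and NDR1/HIN1-like 1 may share reads.

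The 22 libraries held 2977359 to 3445467 counts each, and replicates had Spearman correlations of 0.928 to 0.966. The 16 chlorophyll a-b binding and Rubisco small-subunit genes of the same table, used as markers of leaf tissue, were detected in all libraries, the lowest of them (CN01_scaffold020585G000060) at no more than 11.8 FPKM in dwarf leaves of 4 h. Their summed level in dwarf leaves was 58287 to 69458 FPKM at 0 h, 30547 to 41977 at 4 h, 83868 to 114916 at 6 d and 79133 to 86016 at 10 d. In tall leaves the sum was 55083 to 69762 FPKM at 0 h, 72604 to 77653 at 4 h, 93253 to 115035 at 6 d and 73334 to 93103 at 10 d. Of each sum, 1 gene (CN01_03G009080) made up 36.9% to 54.1%, and the markers did not all move with it. Against their 0 h means, 0 of 16 were higher at 4 h, 13 at 6 d and 10 at 10 d in the dwarf, and 9 at 4 h, 12 at 6 d and 8 at 10 d in the tall. The part of the leaf markers in the results below was not tested. In leaf samples, fewer cells of a type and less RNA per cell cannot be told apart. Dwarf replicate 1 at 0 h stood apart for several members: NDR1/HIN1-like 1 of chromosome 2, for instance, was at 356, 41.8 and 86.2 FPKM in the 3 dwarf leaves at 0 h.

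At 4 h, most calls in the dwarf were toward lower levels. CONSTANS-like factors, 2 clock and chloroplast MYB-like factors and most of the ubiquitin and sensor proteins were lower than at 0 h. Higher were myb-related protein 308 and 2 members of the group of protective, membrane and wall proteins. Of the 35 members, 11 were lower and 3 higher at an edgeR adjusted p under 0.05, which is 14 members, beside 13% of all 18840 genes tested (7.23% lower and 5.81% higher). The median log2 fold change of the members was -0.37, against 0 for all genes. The direction of these calls held in every alternative. Their number was 5 with dwarf libraries alone, and 9 without dwarf 0 h replicate 2 or without dwarf 4 h replicate 3. Without dwarf 0 h replicate 1, 18 members were called. No count is given for flow cell AV alone, whose only dwarf library of 4 h is replicate 3. The members that lost their 4 h call on leaving out 1 library (adjusted p 0.0541 to 0.133) were the 36.4 kDa proline-rich protein (0 h replicate 2, 4 h replicate 1 or 3), the F-box protein At2g32560 and SAUR32-like (0 h replicate 2 or 4 h replicate 3), NDR1/HIN1-like 1 of chromosome 2 (0 h or 4 h replicate 3), the smaller CBS domain protein (0 h replicate 2 or 3, 4 h replicate 1 or 3) and CONSTANS-LIKE 4 (0 h replicate 2).

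At 6 d, all calls were in the other direction. MYB factors, CONSTANS-like factors and sensor proteins were above their 0 h levels, and no protective, membrane or wall protein passed the test. There were 12 members higher and 0 lower, beside 7.97% of all genes (4.36% higher and 3.61% lower). At an unadjusted edgeR p under 0.05 there were 21 members, beside 4519 of all 18840 genes. DESeq2 called 14 members, beside 1752 of all genes. The median log2 fold change was 0.93, against -0.02 for all genes. The count fell to 6 with dwarf libraries alone and to 3 without dwarf 6 d replicate 1, the dwarf library of 6 d on flow cell AV, and was 9 in limma on FPKM, a scale on which the median of all genes lay at -0.27 to -0.30. Of the 12 calls, that of CONSTANS-LIKE 3 held with any 1 library left out, and the others were lost in some case (adjusted p 0.0511 to 0.161). The library was 6 d replicate 1 for 10 of them, all but the bZIP family gene, and in addition 0 h replicate 1 or 2 for MYBS3, 0 h replicate 3 for myb-related protein 308, and any leaf of 0 h or 6 d replicate 3 for the SnRK1 subunit. For the bZIP family gene it was 0 h replicate 1 or 3.

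At 10 d, 11 members were higher and 1 was lower than at 0 h in the dwarf, beside 8% of all genes (4.03% higher and 3.97% lower). Among the members that rose were 3 genes filed under bZIP, MYB factors, CONSTANS-like factors and sensor proteins. The 1 member that fell was a proline-rich protein, DC2.15-like of chromosome 10. The median log2 fold change was 0.49, against -0.05 for all genes. All dwarf leaves of 0 h were on flow cell AV and both of 10 d on AW, so this comparison rests on a flow cell effect estimated in other groups: 20 members were called without that term and 4 with dwarf libraries alone. With 1 library fewer, 5 were called without dwarf 0 h replicate 1, 3 without dwarf 10 d replicate 1 and 4 without dwarf 10 d replicate 2. The calls of the F-box protein At2g32560 and CBSCBSPB3 held in each of these cases, and those of the other 10 members did not (adjusted p 0.0506 to 0.217). Besides leaves of 10 d, the call turned on 0 h replicate 1 for GLK1, CONSTANS-LIKE 3, RISBZ2, MYBS3, DC2.15-like and the hypothetical proteins of chromosomes 7 and 15, on 0 h replicate 2 for MYBS3 and on 0 h replicate 3 for DC2.15-like and both hypothetical proteins.

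**Figure D1:**
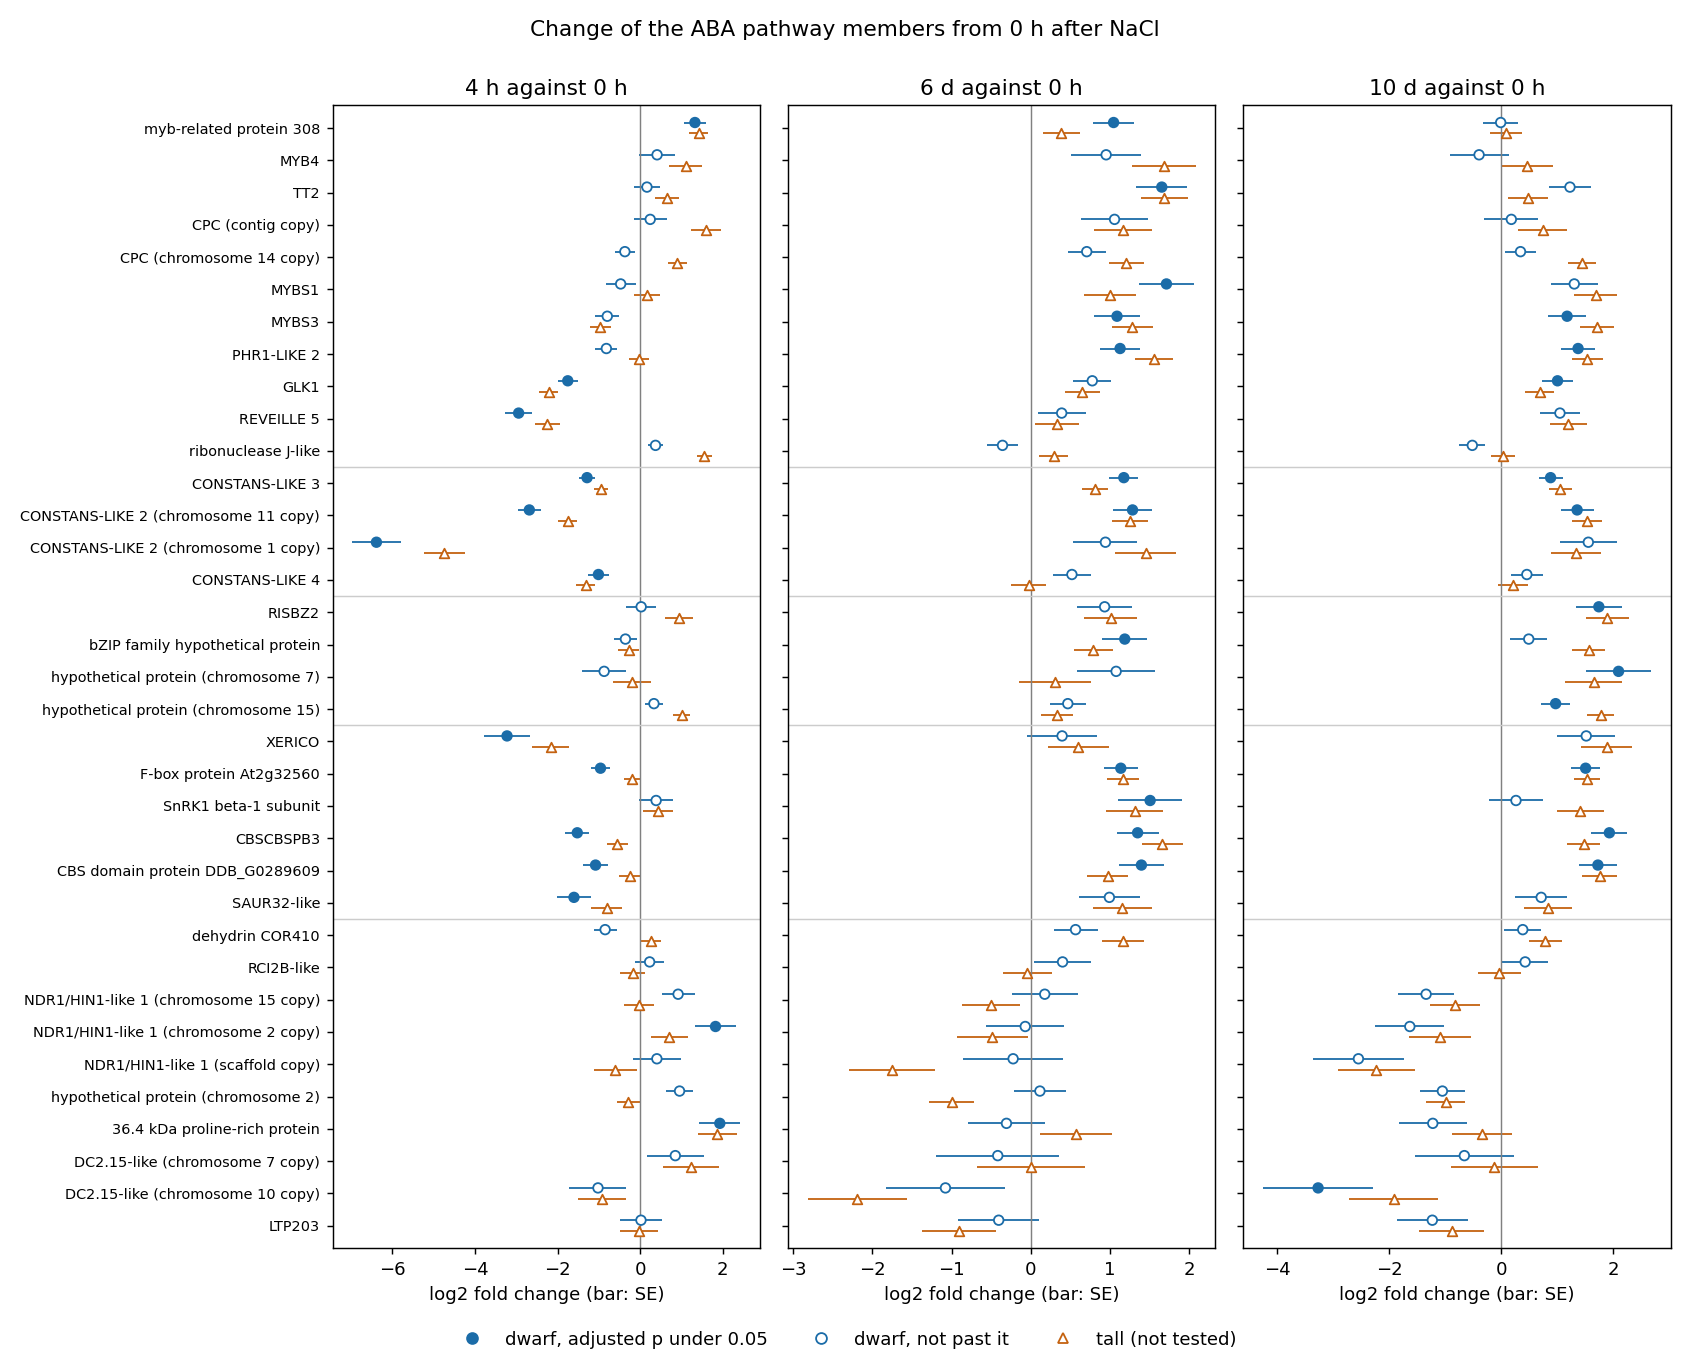
Log2 fold change from 0 h (horizontal axis, 3 panels for 4 h, 6 d and 10 d) of the 35 members in dwarf leaves (circles, filled where the edgeR adjusted p was under 0.05) and tall leaves (triangles, not tested), with bars for the standard error and lines between the role groups. At 4 h the filled circles are mostly left of 0 (11 of 14), and at 6 d all 12 are right of it.

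The CONSTANS-like proteins are B-box zinc finger factors, related to the flowering regulator CONSTANS of Arabidopsis, whose transcripts follow the day. All 4 fell at 4 h, with a median log2 fold change of -1.98. The chromosome 1 copy of CONSTANS-LIKE 2 (CN01_01G005950) showed the widest range of all members. In dwarf leaves it had 53.5, 190.3 and 135 FPKM at 0 h, 2.87, 1.41 and 1.23 at 4 h, 291, 239.7 and 128 at 6 d and 363 and 388 at 10 d. The 4 h libraries held 8.5, 4.07 and 4 estimated counts of it, so its lowest level is known only roughly. Its level at 4 h was lower by 6.38 (SE 0.59, edgeR adjusted p = 3.05e-06) on the log2 scale. The chromosome 11 copy (CN01_11G011580) had 71.4, 70.8 and 85.3 FPKM at 0 h, 8.54, 17.5 and 12.1 at 4 h, 142, 136 and 199 at 6 d and 153 and 184 at 10 d, and no 4 h leaf reached the level of any other dwarf leaf. It was lower by 2.68 (SE 0.28, edgeR adjusted p = 1.21e-05) at 4 h, higher by 1.28 (SE 0.25, edgeR adjusted p = 0.00679) at 6 d and higher by 1.35 (SE 0.29, edgeR adjusted p = 0.0136) at 10 d.

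CONSTANS-LIKE 3 had 306, 284 and 309 FPKM at 0 h, 123, 151 and 125 at 4 h, 606, 466 and 679 at 6 d and 450.4 and 522 at 10 d in dwarf leaves. Its replicates lay close together, and the groups of 4 h, 6 d and 10 d did not overlap with that of 0 h. The log2 fold change was -1.29 (SE 0.19, edgeR adjusted p = 0.000345) at 4 h, 1.17 (SE 0.18, edgeR adjusted p = 0.0029) at 6 d and 0.88 (SE 0.21, edgeR adjusted p = 0.0212) at 10 d. Its calls at 4 h and 6 d held in all 17 alternatives of each. CONSTANS-LIKE 4 was at 83, 156 and 139 FPKM at 0 h, 52.3, 67.6 and 75.3 at 4 h, 137, 183 and 128 at 6 d and 138 and 149 at 10 d. It fell by 1.01 (SE 0.25, edgeR adjusted p = 0.0124) at 4 h, and its libraries of 6 d and 10 d overlapped with those of 0 h. In tall leaves, the 4 factors were also below 0 h at 4 h, by log2 fold changes of -4.75, -1.75, -1.32 and -0.95 for CONSTANS-LIKE 2 of chromosome 1 and of chromosome 11, CONSTANS-LIKE 4 and CONSTANS-LIKE 3.

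**Figure D2:**
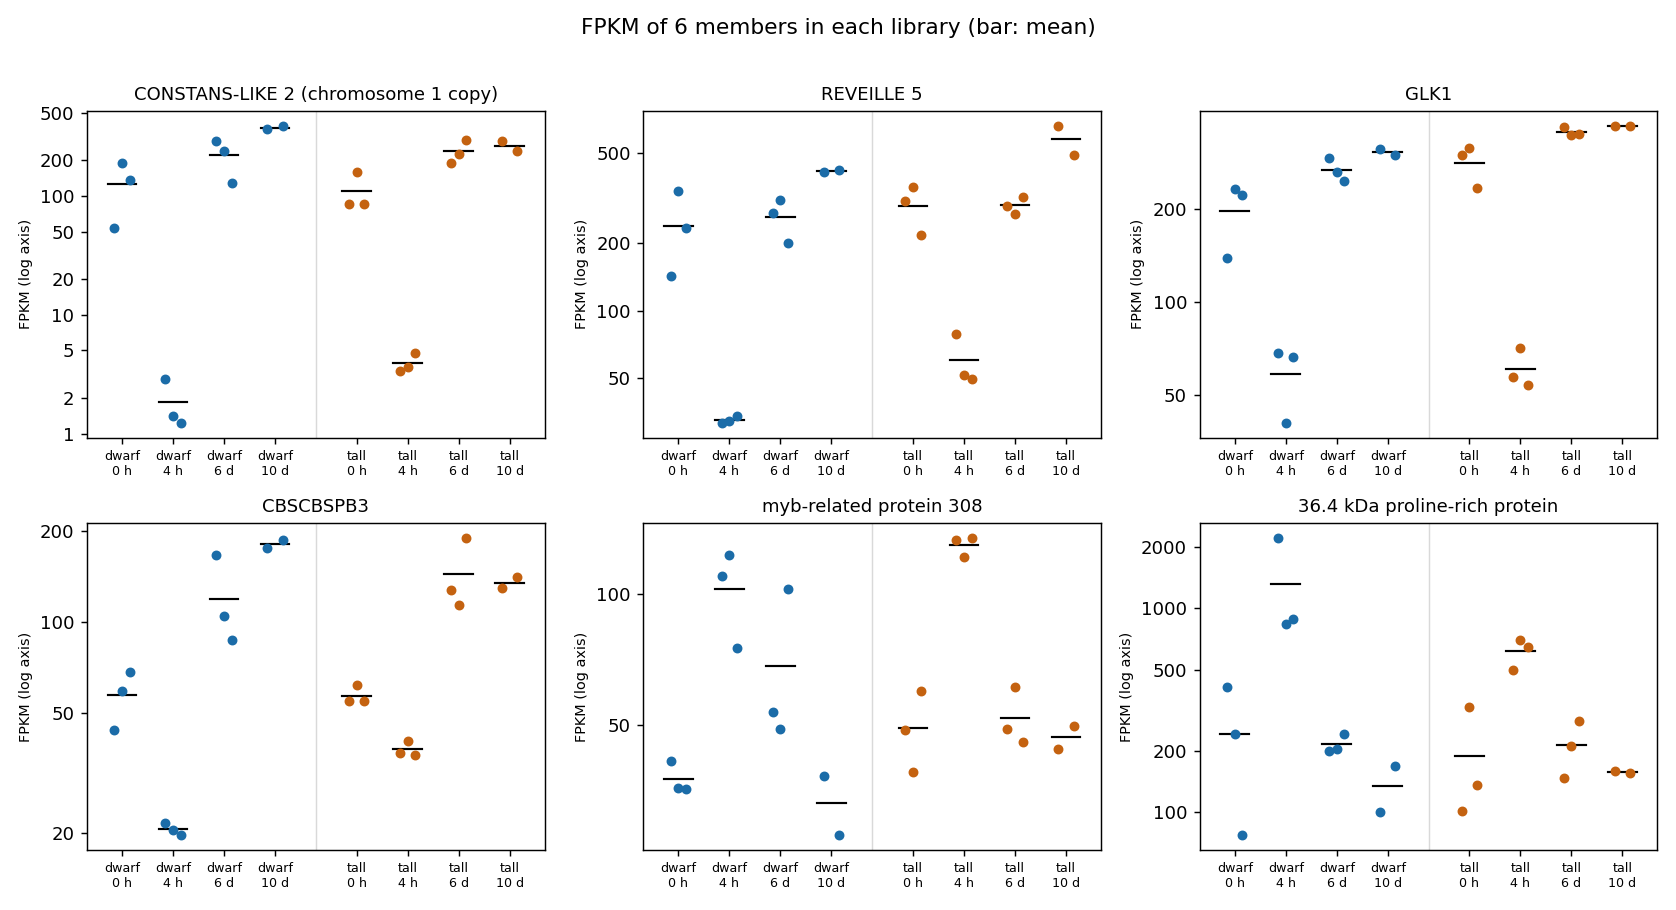
FPKM (log axis) of 6 members in each dwarf (left) and tall (right) library at 0 h, 4 h, 6 d and 10 d, with points for libraries and bars for group means. CONSTANS-LIKE 2 of chromosome 1, REVEILLE 5, GLK1 and CBSCBSPB3 have their lowest level at 4 h in both varieties, while myb-related protein 308 and the 36.4 kDa proline-rich protein have their highest there.

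Among the MYB and MYB-like factors, 1 rose and 2 fell at 4 h, 5 rose at 6 d and 3 rose at 10 d. REVEILLE 5 belongs to a family of MYB-like proteins that work in the circadian clock of Arabidopsis. It had 142, 339 and 233 FPKM at 0 h, 31.8, 32.3 and 34 at 4 h, 271, 311 and 200.3 at 6 d and 414 and 421 at 10 d in dwarf leaves. The 3 leaves of 4 h were close to each other and far below all others, and it fell by 2.94 (SE 0.33, edgeR adjusted p = 3.16e-05) on the log2 scale. GLK1, a factor that switches on chloroplast genes in Arabidopsis and maize, had 139, 233 and 223 FPKM at 0 h, 68.1, 40.5 and 66.4 at 4 h, 295, 264 and 247 at 6 d and 314 and 302 at 10 d. It was lower by 1.75 (SE 0.25, edgeR adjusted p = 0.000259) at 4 h and higher by 1 (SE 0.28, edgeR adjusted p = 0.0371) at 10 d. The 10 d call of GLK1 was lost with the leaf as a block (adjusted p = 0.079). REVEILLE 5 and GLK1 kept their 4 h calls in all 17 alternatives, as did CONSTANS-LIKE 3 and both copies of CONSTANS-LIKE 2.

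The myb-related protein 308, named after a snapdragon factor that lowers phenolic synthesis, moved the other way at 4 h. Its dwarf levels were 41.3, 35.6 and 35.5 FPKM at 0 h, 110.2, 123 and 75 at 4 h, 53.6, 48.8 and 103 at 6 d and 38 and 27.9 at 10 d. The 4 h leaves were all above the 0 h leaves, and 1 leaf of 6 d was as high. The log2 fold change was 1.32 (SE 0.26, edgeR adjusted p = 0.00313) at 4 h and 1.04 (SE 0.26, edgeR adjusted p = 0.0215) at 6 d.

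TT2, MYBS1 and PHR1-LIKE 2 were among the factors that rose at 6 d. TT2 activates proanthocyanidin genes in the Arabidopsis seed coat. It had 43.9, 52 and 44.1 FPKM at 0 h, 53.8, 40.6 and 63.7 at 4 h, 125, 128 and 100 at 6 d and 114 and 58.6 at 10 d, and its log2 fold change at 6 d was 1.65 (SE 0.32, edgeR adjusted p = 0.00688). MYBS1, which in rice acts in the sugar control of amylase genes, had 93.5, 62.7 and 68.7 FPKM at 0 h, 34, 87.7 and 45.8 at 4 h, 244, 142 and 218 at 6 d and 137 and 165 at 10 d. All MYBS1 values of 6 d and 10 d were above those of 0 h, and its log2 fold change at 6 d was 1.71 (SE 0.35, edgeR adjusted p = 0.00839). PHR1-LIKE 2 is related to the regulator of the phosphate starvation response. It had 64.1, 132 and 120.2 FPKM at 0 h, 56.2, 67.4 and 62 at 4 h, 212, 193 and 162 at 6 d and 221 and 228 at 10 d. Here too the later leaves were above all 0 h leaves, and it was higher by 1.13 (SE 0.26, edgeR adjusted p = 0.0146) at 6 d and by 1.37 (SE 0.3, edgeR adjusted p = 0.0147) at 10 d.

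MYBS3, a relative of MYBS1, ranged over 206 to 316 at 0 h, 117 to 153 at 4 h, 340.3 to 476 at 6 d and 374 to 388 at 10 d FPKM in dwarf leaves. It rose by 1.09 (SE 0.29, edgeR adjusted p = 0.0301) at 6 d and by 1.18 (SE 0.34, edgeR adjusted p = 0.0391) at 10 d. Its log2 fold change at 4 h was -0.8 (adjusted p = 0.076), which passed the test with the leaf as a block (adjusted p = 0.00173). MYB4, the copies of CPC and the ribonuclease J-like gene passed the test in no dwarf comparison with 0 h. MYB4 is a repressor of phenylpropanoid genes in Arabidopsis, and CPC is a small MYB that shapes root hairs and leaf hairs there. The dwarf ranges were 59.6 to 156 at 0 h, 119 to 176 at 4 h, 122 to 221 at 6 d and 68.7 to 79.7 at 10 d FPKM for MYB4. They were 424 to 643 at 0 h, 433 to 531 at 4 h, 657 to 999.6 at 6 d and 589 to 712 at 10 d FPKM for the chromosome 14 copy of CPC and 121 to 198 at 0 h, 165 to 206 at 4 h, 98 to 378 at 6 d and 116 to 167 at 10 d FPKM for the contig copy. In tall leaves all 3 CPC values of 4 h were above all 0 h values in each copy, and the dwarf ranges of 4 h and 0 h overlapped. The ribonuclease J-like gene, a fragment with a MYB-like domain, ranged over 83.1 to 116 at 0 h, 124 to 198 at 4 h, 66.7 to 95.2 at 6 d and 61.6 to 92.3 at 10 d FPKM in the dwarf and 48.9 to 87.9 at 0 h, 156 to 220.4 at 4 h, 55.8 to 67.6 at 6 d and 64.8 to 67.1 at 10 d FPKM in the tall.

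Of the 6 kinase, ubiquitin and sensor proteins, 5 fell at 4 h, 4 rose at 6 d and 3 rose at 10 d in the dwarf. XERICO is a RING finger protein that raises ABA levels when overexpressed in Arabidopsis. It had 19.4, 68.6 and 34.2 FPKM at 0 h, 3.06, 11 and 3.49 at 4 h, 52.4, 81.8 and 32.5 at 6 d and 119 and 158 at 10 d in dwarf leaves. The leaves of 4 h were below all others, and both leaves of 10 d were above them. It fell by 3.22 (SE 0.56, edgeR adjusted p = 0.00154) on the log2 scale at 4 h, where the libraries held 4, 14 and 5 estimated counts of it. This call was lost with dwarf libraries alone (adjusted p = 0.058). Within flow cell AV, whose only dwarf library of 4 h is replicate 3, the log2 fold change was -3.59. The later levels of XERICO did not pass the test against 0 h (adjusted p = 0.634 at 6 d and 0.0751 at 10 d).

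The F-box protein At2g32560, a type of protein that selects targets for ubiquitin ligases, had 38.9, 65.7 and 50.5 FPKM at 0 h, 30.8, 30.7 and 27.9 at 4 h, 103, 95.8 and 105 at 6 d and 121 and 152 at 10 d. Its leaves of 4 h were all below, and its later leaves all above, those of 0 h. The log2 fold change was -0.96 (SE 0.23, edgeR adjusted p = 0.0101) at 4 h, 1.14 (SE 0.22, edgeR adjusted p = 0.00611) at 6 d and 1.51 (SE 0.26, edgeR adjusted p = 0.00608) at 10 d. CBSCBSPB3 has CBS domains, a fold that in other proteins binds adenosine nucleotides. It had 44, 59 and 68.3 FPKM at 0 h, 21.6, 20.5 and 19.8 at 4 h, 166, 104 and 86.9 at 6 d and 175 and 187 at 10 d, with no overlap between 0 h and any later time. Its log2 fold change was -1.52 (SE 0.28, edgeR adjusted p = 0.00248) at 4 h, 1.35 (SE 0.27, edgeR adjusted p = 0.00713) at 6 d and 1.93 (SE 0.32, edgeR adjusted p = 0.00568) at 10 d. The 10 d calls of the F-box protein and CBSCBSPB3 held in all 15 alternatives. Without dwarf 6 d replicate 1, the 6 d change of CBSCBSPB3 was 0.73 (adjusted p = 0.16).

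A smaller CBS domain protein (CN01_09G008820) had 142, 157 and 149 FPKM at 0 h, 37, 99.2 and 66.8 at 4 h, 326, 193 and 388 at 6 d and 319 and 402 at 10 d. It followed the same course as CBSCBSPB3, with log2 fold changes of -1.08 (SE 0.29, edgeR adjusted p = 0.0227) at 4 h, 1.4 (SE 0.28, edgeR adjusted p = 0.00835) at 6 d and 1.73 (SE 0.34, edgeR adjusted p = 0.00893) at 10 d. SAUR32-like, of the small auxin-up RNA family, had 376, 573 and 399 FPKM at 0 h, 273, 319 and 160 at 4 h, 1212, 1178 and 714 at 6 d and 1137 and 1262 at 10 d. It fell by 1.6 (SE 0.41, edgeR adjusted p = 0.0167) at 4 h, although the ranges of 4 h and 0 h lay close, and the call was lost without the flow cell term (log2 fold change -0.87, adjusted p = 0.27). The beta-1 subunit of SnRK1, a kinase that answers to low energy, had 52.7, 45.8 and 31.4 FPKM at 0 h, 48.2, 103 and 45 at 4 h, 83.3, 70.7 and 190.4 at 6 d and 37.2 and 61.4 at 10 d. It rose by 1.5 (SE 0.4, edgeR adjusted p = 0.0307) at 6 d, a call that did not hold without any 1 of the 3 leaves of 0 h. Within flow cell AV, whose only dwarf library of 6 d is replicate 1, the log2 fold change was 1.31.

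The 4 genes filed under bZIP showed no call at 4 h, 1 rise at 6 d and 3 rises at 10 d. RISBZ2 carries the name of a rice bZIP factor. It had 25.8, 32.5 and 30 FPKM at 0 h, 37.3, 31 and 37.3 at 4 h, 61.3, 58 and 35.8 at 6 d and 123 and 76 at 10 d in dwarf leaves. Both leaves of 10 d were above all others, and the log2 fold change at 10 d was 1.74 (SE 0.42, edgeR adjusted p = 0.0195). Without dwarf 10 d replicate 1, the higher of the pair, it was 1.34 (adjusted p = 0.16). The bZIP family gene of chromosome 2 (CN01_02G011600), with no product name, ranged over 45.8 to 61.2 at 0 h, 29 to 53.3 at 4 h, 66.8 to 147 at 6 d and 58 to 58.9 at 10 d FPKM and rose by 1.19 (SE 0.28, edgeR adjusted p = 0.0181) at 6 d. The hypothetical proteins of chromosomes 7 and 15 have no bZIP family entry of their own. That of chromosome 7 ranged over 23.6 to 75.7 at 0 h, 18.4 to 46.3 at 4 h, 60.1 to 105 at 6 d and 159.7 to 207 at 10 d FPKM and rose by 2.1 (SE 0.58, edgeR adjusted p = 0.0351) at 10 d. That of chromosome 15 ranged over 26.5 to 29.5 at 0 h, 36.1 to 51.5 at 4 h, 28.4 to 56.8 at 6 d and 54.2 to 58.2 at 10 d FPKM and rose by 0.97 (SE 0.26, edgeR adjusted p = 0.0312) at 10 d. The 10 d calls of these hypothetical proteins were lost when either leaf of 10 d was left out.

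The protective, membrane and wall proteins differed from the regulators in the direction of their medians. At 4 h, 2 of the 10 rose and 0 fell (median log2 fold change 0.63). At 6 d none was called (median -0.15), with 0 at an unadjusted p under 0.05, beside 4519 of all 18840 genes. At 10 d, 0 rose and 1 fell (median -1.23), with 5 at an unadjusted p under 0.05, beside 4696 of all 18840 genes. The difference between these medians and those of the other roles was not tested.

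Dehydrin COR410 takes its name from a wheat protein that gathers at the plasma membrane in the cold. Dehydrins are hydrophilic proteins, and their transcripts are a classical sign of dehydration or ABA. Its dwarf levels were 432, 581 and 406 FPKM at 0 h, 347, 278 and 316 at 4 h, 599, 776 and 638 at 6 d and 553 and 727 at 10 d. All leaves of 4 h were below those of 0 h, and all but 1 of the later leaves were above 0 h replicate 2, the highest of 0 h. Neither difference passed the test (log2 fold change -0.85 with adjusted p = 0.0534 at 4 h, 0.56 with adjusted p = 0.226 at 6 d), although that of 4 h did with the leaf as a block (adjusted p = 0.0382). Between 6 d and 4 h it rose by 1.41 (SE 0.26, edgeR adjusted p = 0.000471). RCI2B-like, a small hydrophobic membrane protein, ranged over 189 to 477 at 0 h, 325 to 417 at 4 h, 223 to 539 at 6 d and 275 to 383 at 10 d FPKM, and these ranges overlapped throughout.

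The 36.4 kDa proline-rich protein had 409.6, 241 and 77.4 FPKM at 0 h, 2211, 833 and 886 at 4 h, 199, 203 and 242 at 6 d and 100.5 and 168 at 10 d. The leaves of 4 h were above all others, with dwarf 4 h replicate 1 highest, and the log2 fold change was 1.93 (SE 0.5, edgeR adjusted p = 0.0173). This call was lost without that leaf (1.55, adjusted p = 0.055). NDR1/HIN1-like 1 proteins sit at the membrane and are named after genes of the response to pathogens. The copy of chromosome 2 ranged over 41.8 to 356 at 0 h, 587 to 710.1 at 4 h, 121 to 179.6 at 6 d and 40.4 to 61.7 at 10 d FPKM and rose by 1.82 (SE 0.49, edgeR adjusted p = 0.0215) at 4 h. The copies of chromosome 15 and of the scaffold were not called, with 252 to 879 at 0 h, 734 to 1021 at 4 h, 251 to 669.7 at 6 d and 147 to 148 at 10 d FPKM for chromosome 15 and 32.4 to 108 at 0 h, 68.4 to 168 at 4 h, 11.9 to 82.4 at 6 d and 8.5 to 14 at 10 d FPKM for the scaffold. All 3 copies had their lowest dwarf group mean at 10 d.

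The remaining members of this role were small proteins of the lipid-transfer fold and a hypothetical protein. DC2.15-like of chromosome 10, a proline-rich protein first named in carrot, ranged over 70.7 to 231 at 0 h, 58.1 to 76.3 at 4 h, 5.29 to 91 at 6 d and 8.66 to 11.7 at 10 d FPKM. It fell by 3.27 (SE 0.99, edgeR adjusted p = 0.0496) at 10 d. The copy of chromosome 7 ranged over 171 to 399 at 0 h, 284 to 1031 at 4 h, 74.2 to 496 at 6 d and 187 to 222 at 10 d FPKM and LTP203 over 164 to 511 at 0 h, 207 to 639 at 4 h, 202 to 258 at 6 d and 112 to 149 at 10 d FPKM, neither of them called. The hypothetical protein of chromosome 2 (CN01_02G003640) ranged over 32.8 to 75.6 at 0 h, 82.1 to 108 at 4 h, 28.6 to 63.5 at 6 d and 17.1 to 18.3 at 10 d FPKM and was not called against 0 h.

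Between 6 d and 4 h, most members changed in the dwarf. Against 4 h, 21 members were higher at 6 d and 4 were lower, which is 25 of 35, beside 36.1% of all genes (18% in each direction). The median log2 fold change was 1.41, against -0.02 for all genes. This comparison shares the 4 h libraries with that of 4 h against 0 h. The 4 that fell were the ribonuclease J-like gene (-0.73), NDR1/HIN1-like 1 of chromosome 2 (-1.89), the hypothetical protein of chromosome 2 (-0.84) and the 36.4 kDa proline-rich protein (-2.23). All 4 CONSTANS-like factors rose, as did all 6 kinase, ubiquitin and sensor proteins and 7 of the 11 MYB and MYB-like factors, of which 1 fell. The largest rises were those of CONSTANS-LIKE 2 of chromosome 1 by 7.32 (SE 0.57, edgeR adjusted p = 1.75e-07) and of chromosome 11 by 3.96 (SE 0.27, edgeR adjusted p = 5.37e-08), XERICO by 3.62 (SE 0.51, edgeR adjusted p = 4.57e-05) and REVEILLE 5 by 3.33 (SE 0.31, edgeR adjusted p = 9.98e-07). Of the 25 calls, 15 held in every alternative. Flow cell AV held 1 dwarf library of 4 h and 1 of 6 d, so no count is given for it.

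Between 10 d and 6 d no member passed the edgeR test, beside 0.637% of all genes. At an unadjusted p under 0.05 there were 13 members, beside 3002 of all 18840 genes. DESeq2 called 4 members, beside 507 of all genes, and 5 members were called without dwarf 6 d replicate 1. The median log2 fold change was -0.24, against -0.02 for all genes. By role, the medians were -1.04 for the protective, membrane and wall proteins, -0.36 for the MYB and MYB-like factors, 0.01 for the CONSTANS-like factors, 0.35 for the kinase, ubiquitin and sensor proteins and 0.66 for the genes filed under bZIP.

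The tall leaves, whose values the table of the study holds, gave the following description. The median log2 fold change of the 35 members from 0 h was -0.18 at 4 h, 0.79 at 6 d and 0.84 at 10 d, against 0, -0.02 and -0.03 for all genes. By the study's methods, a row needed a 2-fold change, a mean FPKM at the later time of at least 100 where it rose or at most 100 where it fell, and a NOISeq probability of at least 0.8, or else a level above 350 FPKM without such a change. The probability was not recomputed. On the FPKM of tall leaves, 30 members met the conditions on fold and level, and each of the other 5 had a group mean above 350. Among those just inside were SAUR32-like, with a mean of 909 FPKM at 10 d against 428 at 0 h (2.13-fold), and NDR1/HIN1-like 1 of chromosome 2, with 92.8 against 207 (2.23-fold). DC2.15-like of chromosome 7 was another, with 390.1 FPKM at 4 h against 178.9 at 0 h (2.18-fold). RISBZ2 was near the limit on level, with 102.2 FPKM at 10 d. Outside by their fold were CONSTANS-LIKE 3 (1.97-fold), dehydrin COR410 (1.72-fold) and RCI2B-like (1.28-fold), with highest group means of 805, 780.1 and 483 FPKM. Outside by their level were NDR1/HIN1-like 1 of chromosome 15, at 341 FPKM at 10 d against 739 at 0 h, and LTP203, at 240.5 FPKM at 6 d against 567 at 0 h.

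No library is shared between the dwarf and the tall comparisons, and the sign of the change is set side by side as a description. Both changes came from the same fit and share its flow cell term, so they are not separate estimates. At 10 d, all libraries of both varieties were on flow cell AW, while those of 0 h were all on AV in the dwarf and mostly in the tall. How far the shared term ties the signs together was not tested. The members' tall changes were values of the choice, so the shares of all genes stand as background, and nothing is read from a difference. The dwarf change had the sign of the tall change in 27 of 35 members (77.1%) at 4 h, 28 (80%) at 6 d and 31 (88.6%) at 10 d. Where the tall change was at least 2-fold, the sign was shared by all 13 members at 4 h, all 16 at 6 d and all 20 at 10 d. Of all 18840 genes tested, 69.5%, 71% and 72.3% shared the sign at 4 h, 6 d and 10 d. Among genes with a tall change of at least 2-fold, these shares were 85.8%, 85.2% and 90.5%. Of the 21 members lower in the tall at 4 h, 11 were called lower in the dwarf and 0 higher. Of the 27 members higher in the tall at 6 d, 12 were called higher in the dwarf, and of the 26 higher at 10 d, 11 were. Over all genes, 1230 of 9390 lower in the tall at 4 h were called lower in the dwarf. Of those higher in the tall, 803 of 9142 at 6 d and 748 of 9068 at 10 d were called higher.

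**Figure D3:**
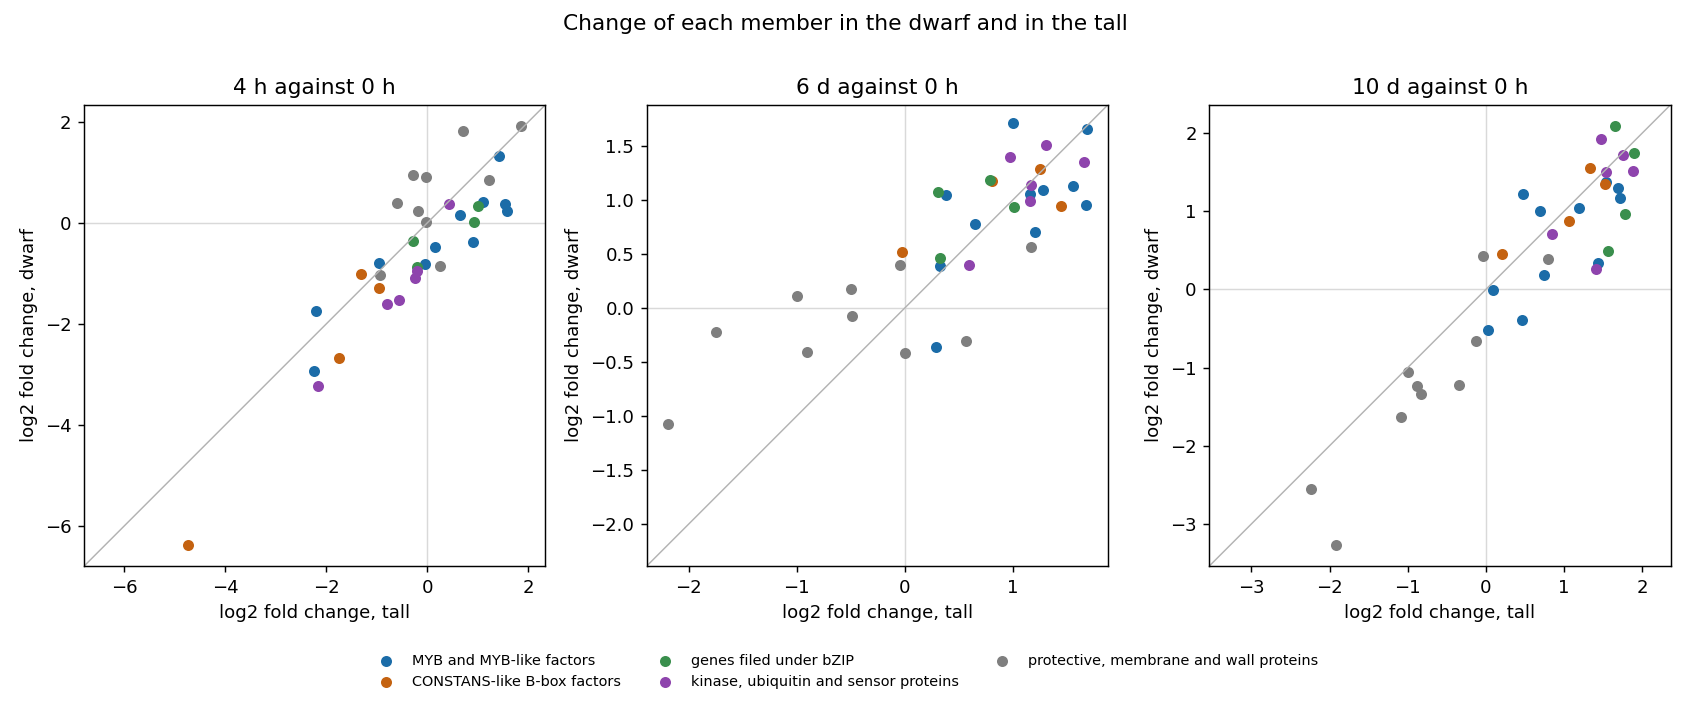
Log2 fold change from 0 h of each member in the dwarf (vertical axis) against the tall (horizontal axis) at 4 h, 6 d and 10 d, with points for members coloured by role and a line where both are equal. Below the line, where the dwarf change is the lower, lie 25 of the 35 points at 4 h, 16 at 6 d and 28 at 10 d.

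A difference between the varieties contains the tall values of the choice, which can move it by itself, so the following differences are descriptions, and nothing is read from their direction. At 4 h the dwarf change minus the tall change had a median of -0.64 over the members, with 25 of 35 below 0. At 6 d the median was 0.06 and at 10 d -0.32. At 4 h the F-box protein was below 0 h by 0.96 (log2) in the dwarf and 0.2 in the tall, a difference of -0.76 (SE 0.31). CBSCBSPB3 had -1.52 in the dwarf and -0.56 in the tall, and the smaller CBS domain protein -1.08 in the dwarf and -0.24 in the tall. Dehydrin COR410 had -0.85 in the dwarf and 0.26 in the tall, a difference of -1.1 (SE 0.39). CPC of chromosome 14 had -0.37 in the dwarf and 0.9 in the tall, a difference of -1.27 (SE 0.33), and the ribonuclease J-like gene 0.37 and 1.55, a difference of -1.18 (SE 0.26). The hypothetical protein of chromosome 2 (1.24 (SE 0.43)) and NDR1/HIN1-like 1 of chromosome 2 (1.11 (SE 0.66)) had differences above 0. The leaf markers differed between the varieties in the same hours, with a sum at 4 h of 30547 to 41977 FPKM in the dwarf and 72604 to 77653 FPKM in the tall, and their part in these differences was not tested.

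The same holds for levels, since a level in tall leaves was one of the criteria. The dwarf minus tall difference at 0 h had a median of -0.26 (log2) over the members, with 23 of 35 below 0. The median was -0.59 at 4 h (29 below 0), -0.08 at 6 d (20 below 0) and -0.44 at 10 d (27 below 0). Over all 18840 genes, 9101 were below 0 at 0 h, 9342 at 4 h, 9241 at 6 d and 9398 at 10 d. XERICO, for instance, was at 19.4, 68.6 and 34.2 FPKM in dwarf leaves and 72, 81.7 and 52.4 FPKM in tall leaves at 0 h, a difference of -0.52 (SE 0.41). At 10 d it was at 119 and 158 FPKM in dwarf leaves and 305 and 234 FPKM in tall leaves.

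Core genes of the pathway stood in the same table without an ABA entry. They were zeaxanthin epoxidase, an enzyme of ABA synthesis, and protein phosphatases 2C 16 and 2C 53, which carry gene symbols of the HAB family, the negative regulators of ABA signalling in Arabidopsis. All 3 fell at 4 h in the dwarf, beside 7.23% of all genes called lower. Protein phosphatase 2C 16 had 66.3, 101 and 84.9 FPKM at 0 h, 37.7, 28.7 and 30.9 at 4 h, 79.3, 87.9 and 58.9 at 6 d and 105 and 127 at 10 d. Its leaves of 4 h were below all others, with a log2 fold change of -1.53 (SE 0.24, edgeR adjusted p = 0.000641). Protein phosphatase 2C 53 had 38.2, 54.1 and 48.9 FPKM at 0 h, 5.93, 17.4 and 10.6 at 4 h, 28.9, 36.2 and 29.6 at 6 d and 74.5 and 76.6 at 10 d, and it was lower by 2.02 (SE 0.35, edgeR adjusted p = 0.00147) at 4 h. Its dwarf leaves were all below 0 h at 6 d and above it at 10 d, and neither change passed the test. In the tall, its 6 d leaves were below 0 h and those of 10 d overlapped with it. The paper describes a 2C phosphatase gene of chromosome 14, where 2C 53 lies, as downregulated at every stage. Whether it is the same gene was not checked. Zeaxanthin epoxidase had 45.7, 82.7 and 63.7 FPKM at 0 h, 29.6, 26.8 and 15.6 at 4 h, 185, 182 and 125 at 6 d and 188 and 216 at 10 d. Its log2 fold change was -1.79 (SE 0.32, edgeR adjusted p = 0.00191) at 4 h, 1.4 (SE 0.3, edgeR adjusted p = 0.0103) at 6 d and 1.5 (SE 0.36, edgeR adjusted p = 0.0195) at 10 d. In the tall the epoxidase was at 39.8, 43.4 and 42 FPKM at 4 h, against 46.4, 67.3 and 30.9 FPKM at 0 h, groups that overlap, and the dwarf minus tall difference in its change at 4 h was -1.66 (SE 0.43). The phosphatases were below 0 h at 4 h in the tall too, by log2 fold changes of -1.86 for 2C 16 and -1.72 for 2C 53.

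**Figure D4:**
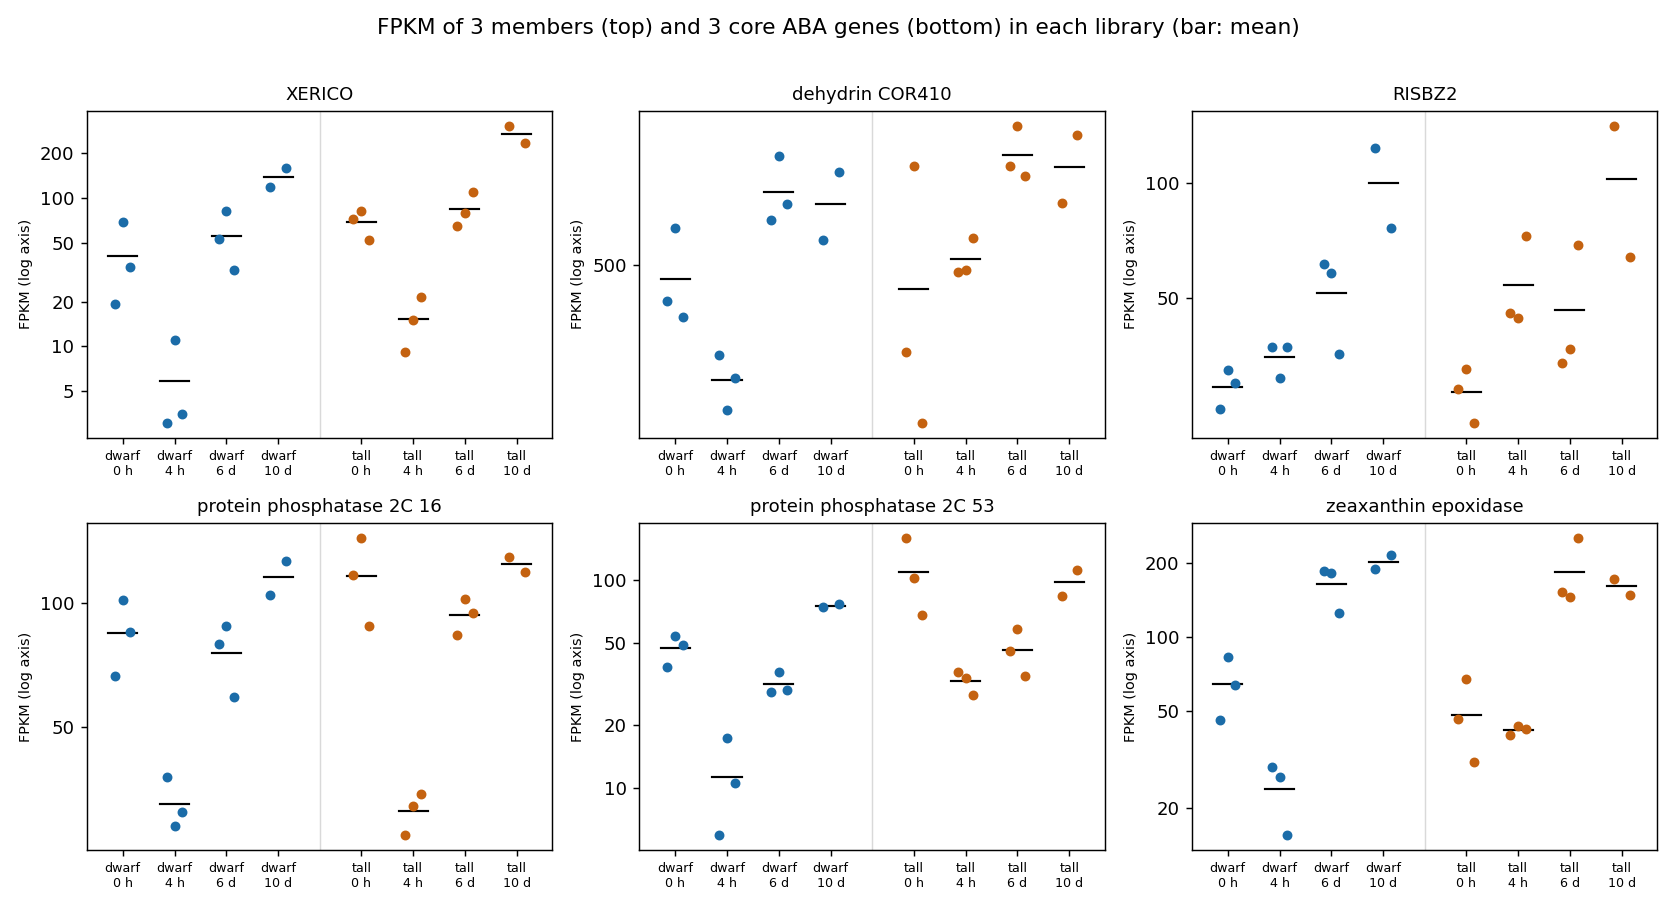
FPKM (log axis) of XERICO, dehydrin COR410 and RISBZ2 (top) and of protein phosphatases 2C 16 and 2C 53 and zeaxanthin epoxidase (bottom) in each dwarf (left) and tall (right) library at 0 h, 4 h, 6 d and 10 d, with points for libraries and bars for group means. XERICO and both phosphatases are lowest at 4 h in both varieties, while zeaxanthin epoxidase is below 0 h in every dwarf leaf of 4 h and overlaps with 0 h in the tall.

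Of the 9 rows with an ABA entry that were left out by product name, 0 rose and 2 fell at 4 h in the dwarf, 1 rose and 1 fell at 6 d, and 0 rose and 1 fell at 10 d. Of all genes tested, 13%, 7.97% and 8% were called at these times. A BURP domain protein 6 (CN01_scaffold011142G000020), of a plant-specific family that includes dehydration-responsive genes, had 86.6, 355 and 249 FPKM at 0 h, 11.6, 41.6 and 16 at 4 h, 793, 491 and 356 at 6 d and 663 and 397 at 10 d. It fell by 3.57 (SE 0.59, edgeR adjusted p = 0.00116) at 4 h, while its tall ranges of 4 h and 0 h were 96.5 to 128 FPKM and 139 to 202 FPKM. Another left-out row of that scaffold (CN01_scaffold011142G000010) went the other way at 4 h in the dwarf and was not called higher. It had 363, 18.6 and 5.05 FPKM at 0 h, 2319, 221 and 624 at 4 h, and 3.2, 0.88 and 1.36 at 6 d.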

How the data were processed

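RNA-seq of 22 leaf libraries was analysed, 11 per variety, and the labels gave each library its variety and time. Counts per gene are expected counts that the authors estimated with RSEM after Bowtie had placed single-end reads on the reference genes. The FPKM values, deposited in the same tables, come from that run and are scaled by gene length and read number. BWA is also named in the submitters' processing notes, and no version is given in the sources used here. A gene not listed in a table was counted as 0. Each table held 21136 to 22149 genes.

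Expected counts were rounded. Of 25247 genes, 18840 passed filterByExpr, among them all 35 members. After TMM scaling, 1 model with terms for the 8 groups and the flow cell was fitted in edgeR 4.0.16 (R 4.3.3) and tested by its quasi-likelihood F test (13 residual degrees of freedom, common biological coefficient of variation 24%), and p-values were adjusted over all genes tested (Benjamini-Hochberg, threshold 0.05). Standard errors are the absolute log2 fold change over the square root of F. Because of the flow cell term, which itself called 6 genes, fold changes need not equal ratios of mean FPKM. Tested on simulated counts for dwarf 4 h against 0 h (18216 genes), the fit recovered 21% of 2-fold and 77% of 4-fold changes, with 9 false calls of 107. The simulation gave every gene a variation of 24%, changed 100 genes at each fold and had no flow cell or leaf effect. Its rates need not hold for the real data.

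Members and lists were chosen with earlier results of these data known. Values per library are given for the 16 members with the smallest adjusted p among the 24 called in a dwarf comparison with 0 h, and for XERICO, the SnRK1 subunit, RISBZ2 and dehydrin COR410. Other genes given are 3 core ABA genes and the 9 rows left out. The study's methods state that same-numbered samples share a leaf. On residuals from group means, same-numbered samples had a mean correlation of 0.10 in the dwarf (-0.29 to 0.42, 8 of 15 pairs above 0.1) and 0.23 in the tall (0.07 to 0.45, 11 of 15). The alternatives were no flow cell term, the leaf as a block, DESeq2 1.42.0, RLE size factors, limma 3.58.1 on log2(FPKM + 1) and log2(FPKM + 0.1), no filter, at least 50 counts, dwarf libraries alone, flow cell AV alone, an added log2 fold change of 1, and each dwarf library left out. Figures and summaries were made with Python 3.11.15, numpy 2.4.6, pandas 2.3.3 and matplotlib 3.10.9. Sequences and gene coordinates were not used here.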

Additional observations from a re-analysis of the deposited data

How the results depend on the processing

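No called fold change of a member changed sign in 1047 comparisons with an alternative, and 148 of them lost the call. Among 1788 values of members not called, 86 changed sign and 86 passed the threshold. The value that did both was that of NDR1/HIN1-like 1 of chromosome 2 (CN01_02G017050) at 6 d against 0 h, 1.24 without dwarf 0 h replicate 1. The number of members called was 5 at 4 h, 6 at 6 d and 4 at 10 d with dwarf libraries alone, 7 at 4 h within flow cell AV, and 20 at 10 d without the flow cell term. Between 10 d and 6 d it was 4 in DESeq2. With 1 dwarf library left out, it was 9 to 18 at 4 h, 3 to 15 at 6 d, 3 to 17 at 10 d, 22 to 26 for 6 d against 4 h and 0 to 5 for 10 d against 6 d. With the leaf as a replicate block it was 16 at 4 h, 12 at 6 d, 11 at 10 d, 25 for 6 d against 4 h and 0 for 10 d against 6 d, and the block changed the calls of GLK1 at 10 d and of MYBS3 and dehydrin COR410 at 4 h and no other call of a member.

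Over all genes, calls at 4 h were 618 with dwarf libraries alone and 1423 with the added fold change (2457 as reported). At 6 d they were 2773 without the flow cell term, 2691 and 2603 in limma, 812 with the added fold change and 484 with dwarf libraries alone (1502 as reported). At 10 d they were 3514 without the term, 2288 and 2318 in limma and 436 with dwarf libraries alone (1507 as reported). For 6 d against 4 h they were 3952 with the added fold change (6798 as reported). For 10 d against 6 d they were 507 in DESeq2, 207 with at least 50 counts, 54 in limma on log2(FPKM + 1) and 0 with dwarf libraries alone (120 as reported). In limma on FPKM the median of all genes moved to -0.27 and -0.30 at 6 d, -0.28 and -0.31 at 10 d, and -0.32 and -0.35 for 6 d against 4 h, and 8 members were called higher and 1 lower at 6 d. The cause was not tested. Levels of a few estimated counts, such as those of CONSTANS-LIKE 2 of chromosome 1 and XERICO in dwarf leaves of 4 h, limit the precision of their fold changes.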
